A study of Sus scrofa with 12 samples.

Results

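The genes that give intramuscular adipocytes their identity, PPARG, CEBPA, FABP4, ADIPOQ, LEP, PLIN1, ZNF423, EBF1 and PDGFRA, were examined for open chromatin in skeletal muscle (longissimus dorsi) of Duroc and Luchuan pigs. ATAC-seq, in which a transposase cuts open chromatin so that reads pile up there, was performed on 3 Duroc and 3 Luchuan boars at 180 days of age. Duroc is a lean breed and Luchuan a fat Chinese breed, and the boars were kept alike with free food and fasted overnight before sampling. Neither breed received a treatment, and both groups are whole muscle with all of its cell types. The deposited table gives 1 read count per peak and breed, read here as the pool of the 3 boars, so the values of single boars are not separate, no value has a standard deviation between boars and no test between breeds was possible.

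The regions of a gene were taken by position alone: an open region belonged to a gene if its midpoint lay in the gene body on Sscrofa11.1 or within 10 kb of it. All 9 genes were found by symbol. Their windows held 96 of the 217213 rows of the table, which became 62 of 140081 regions after overlapping peaks common to both breeds were merged. Of the 9 genes, 8 had at least 1 region and FABP4 had none. In the 62 regions lay 6553 Duroc and 5276 Luchuan reads, with medians of 63.5 and 49 reads per region, against medians of 61 and 38 over all regions. The Luchuan libraries held fewer reads, and Luchuan counts were multiplied by 1.48, the median ratio of Duroc to Luchuan reads over the 68776 common regions. The library totals of the study would give 1.29, so the factor used adjusts for more than depth. All log2 ratios are of scaled Luchuan reads to Duroc reads, so that values above 0 mean more accessible chromatin in Luchuan. Their 95% Clopper-Pearson intervals cover counting error only and leave out variation between boars, since each breed has 1 pooled count. Reads can also be copies of 1 molecule, which would make the intervals too narrow even for counting error. With those library totals as scaling, the median log2 ratio of all genes was -0.20. Without scaling, it was -0.57 and all 8 genes with a region were lower in Luchuan, at -0.09 for ZNF423 to -1.50 for LEP. Directions given below hold relative to the median of the scaled data.

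Fat cells within muscle, which form the marbling of meat, arise from fibro-adipogenic progenitors, mesenchymal cells that carry the receptor PDGFRA. The zinc finger protein ZNF423 and the early B-cell factor EBF1 act early and commit such cells to the adipocyte lineage. PPARG, a nuclear receptor, and CEBPA, a bZIP transcription factor, then switch on each other and the genes of the mature cell. Among these are FABP4, a carrier of fatty acids, PLIN1, which coats the lipid droplet, and the hormones ADIPOQ (adiponectin) and LEP (leptin). In bulk muscle these cells are few beside the fibers, and fewer cells of a type and less accessible chromatin per cell cannot be told apart.

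Most of the 9 genes were weakly accessible, or had no listed peak, at their ends. Because the annotation used here has no strand, both ends of a gene were examined in place of the transcription start site. ADIPOQ, FABP4, LEP and PPARG had no region with its midpoint within 2 kb of an end, and of all 19550 protein-coding genes 26.1% had none. The other 5 had one, and the strongest such region held, as the mean of both breeds, 534 reads per kb of region at CEBPA, 506 at EBF1, 432 at ZNF423, 277 at PDGFRA and 255 at PLIN1. All 5 values lay under 609, the median of the 14438 genes with a region at an end. For comparison, all 13 muscle fiber genes of a fixed list had a region there, with a median of 1054 reads per kb, and ACTA1, the skeletal muscle actin, reached 1274. The genes of the labelled tissue, skeletal muscle, were thus among the most accessible, while of the 4 markers of mature adipocytes only PLIN1 had a listed peak at an end.

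**Figure D1:**
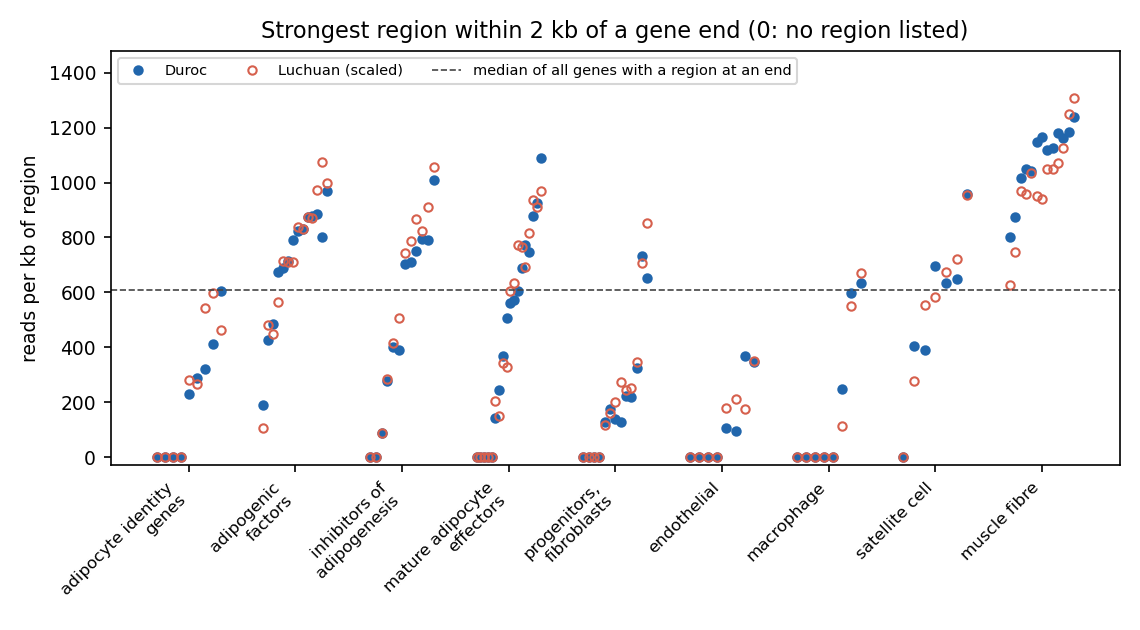
Reads per kb of region in the strongest open region within 2 kb of a gene end, for each gene of 9 lists (columns), in Duroc (filled blue) and Luchuan (open red, multiplied by the scaling factor); points at 0 are genes with no listed region. Of the 9 adipocyte identity genes 4 lie at 0 and the others stay below the dashed median of all genes, 609 reads per kb, while the muscle fiber genes lie between 714 and 1274 as the mean of both breeds.

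Gene ends of the rarer cells of muscle were accessible to different degrees. A region at an end was present for 9 of 13 genes of fibro-adipogenic progenitors and fibroblasts, with a median of 232 reads per kb, for 4 of 8 endothelial genes, with 213, and for 3 of 8 macrophage genes, with 575. Of 7 satellite cell genes 6 had one, with a median of 647. Other adipogenic transcription factors had one in 14 of 14 cases, with a median of 791 and values from 147 at PRDM16 to 983 at CEBPB. So had 10 of 12 inhibitors of adipogenesis, with a median of 737. Of 18 further effectors and adipokines of mature adipocytes 13 had one, with a median of 690, and CFD, CIDEC, LGALS12, PCK1 and RETN had none. Which cells of the whole muscle these reads came from was not tested.

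Between breeds, the summed reads of LEP were past 1.5-fold higher in Duroc, and no other member passed 1.5-fold. Over all 16986 genes with a region in the same window, 2.72% were past 1.5-fold higher in Duroc and 4.43% past 1.5-fold higher in Luchuan, both with an interval that left out 0. CEBPA was also higher in Duroc, and ZNF423 and EBF1 were higher in Luchuan (the last pair only with scaling), with intervals that left out 0. For PPARG, PLIN1, ADIPOQ and PDGFRA the interval included 0. With 50 kb on both sides the intervals of PPARG (0.08 to 0.35), PLIN1 (0.08 to 0.40) and PDGFRA (-0.31 to -0.04) left out 0. So did that of PDGFRA with the library totals of the study (-0.46 to -0.14), but it included -0.20, the median of all genes with that scaling. Over common regions alone PDGFRA was at 0.0095 (-0.17 to 0.19). The median of the 8 genes was 0.13, against -0.0015 over all genes with an interquartile range of -0.14 to 0.15.

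**Figure D2:**
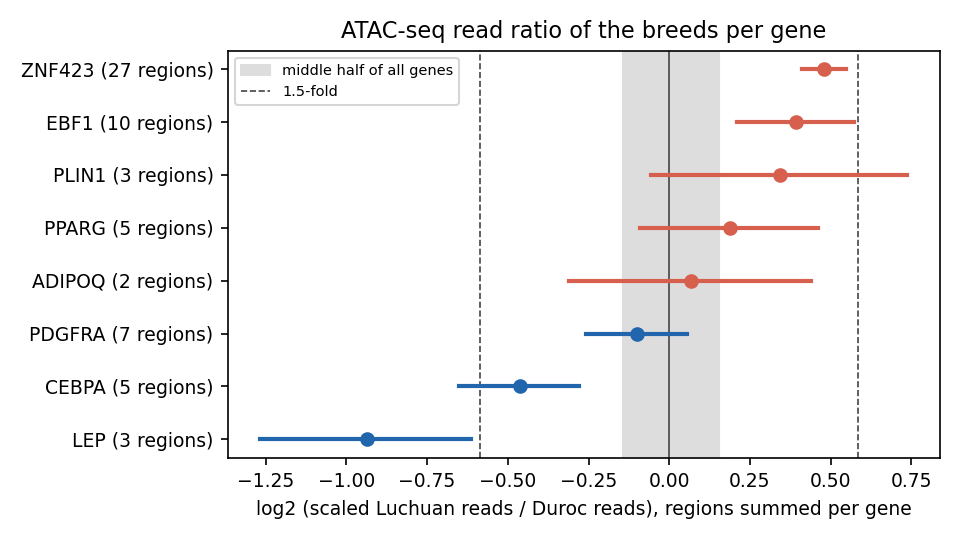
Log2 ratio of scaled Luchuan reads to Duroc reads, summed over the regions of each gene, with 95% Clopper-Pearson intervals for counting error (bars); the grey band is the interquartile range of all genes and dashed lines mark 1.5-fold. LEP lies at -0.94 and CEBPA at -0.46, below the band, and EBF1 at 0.39 and ZNF423 at 0.48 above it. Without scaling all 8 values are below 0.

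Of the 62 regions, 8 were past 2-fold higher in Luchuan and 2 past 2-fold higher in Duroc, which is 12.9% and 3.23%. Over all regions these shares were 6.36% and 5.14%. With the library totals of the study as scaling, 1 of the 62 was past 2-fold higher in Luchuan, against 3.96% of all regions. A region counted as past 2-fold if its log2 ratio, with 1 added to each scaled count, was 1 or more in size and its interval left out 0. ZNF423 held 7 of the 8, and without it 1 of 35 regions was past 2-fold higher in Luchuan. Peaks called in Luchuan alone are weak in Duroc by the way they were called, so the 32 common regions were also counted alone. Among them 2 were past 2-fold higher in Luchuan and 1 higher in Duroc, and over all common regions the shares were 1.01% and 1.4%. Of the 62 regions 27.4% were Luchuan-specific and 21.0% Duroc-specific, against 19.1% and 31.8% over all regions. ZNF423 alone held 11 of the 17 Luchuan-specific regions and 2 of the 13 Duroc-specific ones. The median log2 ratio was 0.30 over the 62 regions and 0.08 without ZNF423, against -0.02 over all regions.

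**Figure D3:**
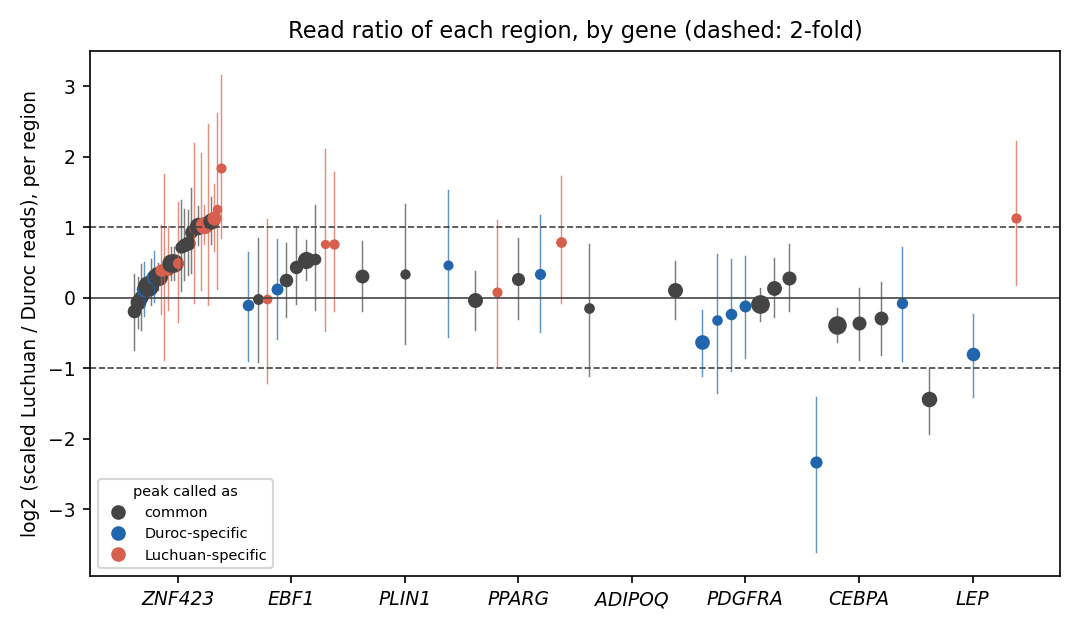
Log2 ratio of scaled Luchuan to Duroc reads for each of the 62 regions, by gene, with 95% Clopper-Pearson intervals for counting error (vertical lines), larger points for more reads and colors for the kind of peak; dashed lines mark 2-fold. ZNF423 has 25 of 27 regions above 0, and 11 of the 27 are Luchuan-specific. CEBPA has 5 of 5 below 0, of which 2 are Duroc-specific, and LEP has 1 past 2-fold on each side. These directions hold with the scaling used here.

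PDGFRA, the receptor that marks the progenitors, lies on chromosome 8 from 40966568 to 41021440. Its 7 regions held 859 Duroc and 541 Luchuan reads, a log2 ratio of -0.10 (-0.26 to 0.06). The region with the most reads, at 41001172 to 41001949 in the gene body, 19.5 kb from its upper end, held 416 reads in Duroc and 263 in Luchuan, a ratio of -0.09 (-0.32 to 0.13). The breeds therefore differed there by less than counting error. Another 5 regions formed a cluster in the gene body within 6.04 kb of its lower end. Among them neighbours went both ways, as in a pair named after their values were seen. The Duroc-specific region from 40969934 to 40970307 held 131 reads in Duroc and 57 in Luchuan, a log2 ratio of -0.63 (-1.11 to -0.17), and the common region just beyond it held 114 and 85, a ratio of 0.14 (-0.28 to 0.56). The region nearest the lower end, from 40968268 to 40968423, had 45 and 28 reads and a ratio of -0.12 (-0.85 to 0.59). PDGFRA had no region past 2-fold.

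ZNF423, the early commitment factor, had the most regions, 27, in a window of 390 kb on chromosome 6 (gene body 34929286 to 35299695). They held 3610 Duroc and 3398 Luchuan reads, and the scaled log2 ratio was 0.48 (0.41 to 0.55), or 1.39-fold higher in Luchuan, which turned to -0.09 without scaling. Of the 27 regions 25 were above 0, and the interval left out 0 in 15, all of them higher in Luchuan. However, 11 of the 27 were Luchuan-specific and 2 Duroc-specific, and of all Luchuan-specific regions 91.5% were above 0 by the way they were called. The strongest region did not lead the difference of the gene, since without it the ratio was 0.55. Over the 14 common regions alone it was 0.42. Among the 1236 genes with at least 20 regions, whose median was -0.04 with an interquartile range of -0.15 to 0.09, ZNF423 ranked 18 from the highest. In the 100 kb beyond the window on each side lay only 3 regions, all 3 above 0, with a median of 0.54 and summed reads at 0.66. The nearest on each side were weak and Luchuan-specific, with 14 Duroc and 14 Luchuan reads below and 10 and 17 above.

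The difference at ZNF423 was not even along the gene, and the stretches that follow were set after the positions were seen. The 6 regions in the first 5 kb from the lower end held 1036 Duroc and 982 Luchuan reads, a log2 ratio of 0.49 (0.36 to 0.62). The 7 regions from 5 to 50 kb held 1646 and 1434 reads, a ratio of 0.37 (0.26 to 0.47), and included the strongest region of the gene, from 34952541 to 34953376, with 718 reads in Duroc and 543 in Luchuan, a ratio of 0.16. The largest difference lay in the 9 regions from 50 to 200 kb, with 616 and 754 reads and a ratio of 0.86 (0.70 to 1.01). Beyond 200 kb the 5 regions held 312 and 228 reads, a ratio of 0.11 (-0.14 to 0.37). Single regions did not all follow their stretch, since ratios ran from 0.01 to 1.03 between 5 and 50 kb and from 0.22 to 1.84 between 50 and 200 kb.

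Of the 7 regions of ZNF423 past 2-fold higher in Luchuan, 4 held at least 100 reads and the other 3 between 27 and 41. A Luchuan-specific region, from 34950858 to 34951299, counted 256 reads in Luchuan and 185 in Duroc, a log2 ratio of 1.03 (0.76 to 1.32). The common region at 35009140 to 35009753, 80.2 kb inside the gene, counted 260 and 190, a ratio of 1.02 (0.74 to 1.30). The common region at 35046265 to 35046849, 117 kb inside the gene, counted 190 and 132, a ratio of 1.09 (0.76 to 1.42). These are the only common regions of the gene past 2-fold. The region from 34933516 to 34933764, 4.35 kb from the lower end, counted 95 and 64, a ratio of 1.12 (0.66 to 1.62), and the one from 35079089 to 35079266 counted 24 and 17, a ratio of 1.02 (0.11 to 2.05). The ratio most in favor of Luchuan, 1.84 (0.85 to 3.16), belonged to a weak region from 35110491 to 35110675, named after its value was seen, with 26 Luchuan and 10 Duroc reads. With the library totals of the study in place of the scaling used here, 1 of the 7 remained past 2-fold. Nearest the ends lay a Duroc-specific region from 34929800 to 34930146, with 141 Duroc and 104 Luchuan reads and a ratio of 0.13 (-0.25 to 0.50), and a common region from 35297818 to 35298056, with 40 and 45 reads and a ratio of 0.72 (0.09 to 1.39).

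**Figure D4:**
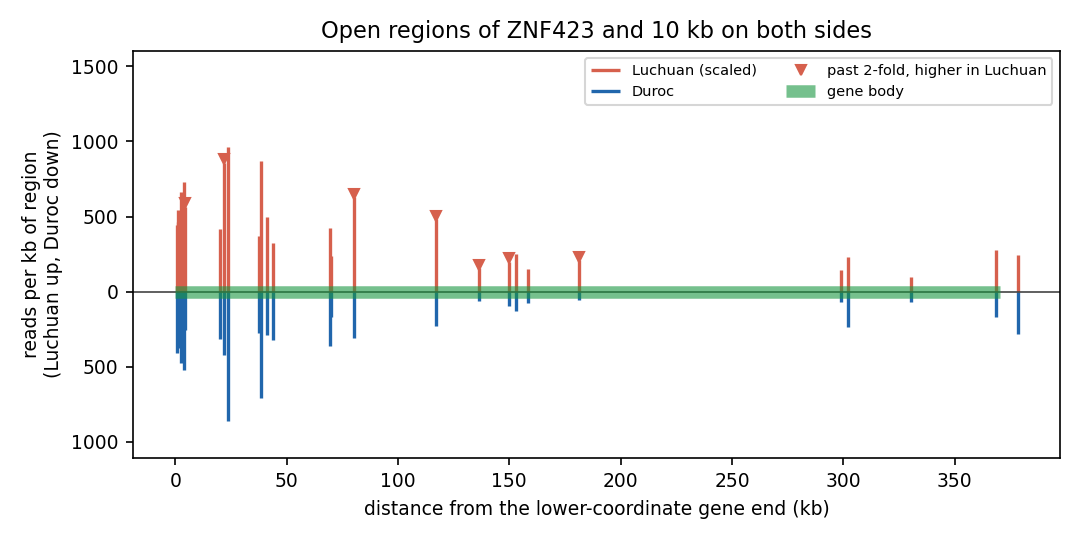
Reads per kb of the 27 regions of ZNF423 against the distance of their midpoints from the gene end with the lower coordinate (kb), with Luchuan (scaled) upwards, Duroc downwards, the gene body in green and triangles at regions past 2-fold higher in Luchuan. All 7 triangles fall in the first 200 kb, and 5 of them between 50 and 200 kb. Without scaling 1 region of the gene remains past 2-fold.

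EBF1 lies on chromosome 16 from 64357999 to 64753188, and in spite of its length of 395 kb it had only 10 regions, or 2.41 per 100 kb of window, against a median of 9.84 over all genes. They held 535 Duroc and 474 Luchuan reads, a log2 ratio of 0.39 (0.21 to 0.57) that turned to -0.17 without scaling. The region from 64357714 to 64358216, which spans the lower end, counted 208 in Duroc and 203 in Luchuan, a ratio of 0.53 (0.25 to 0.82). It held 40.7% of the reads of the gene and was the single region with an interval that left out 0. Without it the ratio was 0.30. At the upper end a Luchuan-specific region, from 64753402 to 64753552, had 18 and 21 reads, a ratio of 0.76 (-0.19 to 1.78). No region of EBF1 was past 2-fold.

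PPARG, the nuclear receptor at the head of adipocyte differentiation, lies on chromosome 13 from 68301566 to 68433951. All of its 5 regions lay inside the gene and none lay within 10.3 kb of an end. To the side of lower coordinates, the first 65.1 kb of the gene and the 110.6 kb outside it held no region. The 5 regions held 255 Duroc and 196 Luchuan reads together, a log2 ratio of 0.19 (-0.09 to 0.46). The strongest, from 68406762 to 68407143, counted 124 in Duroc and 82 in Luchuan, a ratio of -0.03 (-0.45 to 0.38). The region nearest the upper end, from 68423405 to 68423652, had 21 and 25 reads and a ratio of 0.79 (-0.08 to 1.73), and the one nearest the lower end, from 68366704 to 68366901, 29 and 25 reads and a ratio of 0.34 (-0.48 to 1.18). At this depth no difference between breeds was detectable within 10 kb of PPARG, and its ratio was -0.01 with the library totals of the study as scaling. With 50 kb on both sides it was 0.21.

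CEBPA, the partner of PPARG, is a short gene of 2.69 kb on chromosome 6, from 43083200 to 43085884. All 5 of its regions were below 0, with 723 Duroc and 354 Luchuan reads in all and a log2 ratio of -0.46 (-0.65 to -0.28), or 1.38-fold higher in Duroc. However, 2 of the 5 were Duroc-specific and 0 Luchuan-specific, and of all Duroc-specific regions only 21.0% were above 0 by the way they were called. Over the 3 common regions alone the ratio was -0.37 (-0.57 to -0.17). The region from 43085577 to 43086277 spans the upper end and counted 425 in Duroc and 219 in Luchuan, a ratio of -0.39 (-0.63 to -0.15). In Duroc it held 606 reads per kb, more than 88.1% of all regions. Its neighbours on both sides, from 43084809 to 43085055 with 99 and 52 reads and from 43086410 to 43086651 with 92 and 51, had ratios of -0.36 and -0.28 with intervals that included 0. The largest difference lay 5.55 kb outside the upper end, from 43091432 to 43091696. This Duroc-specific region counted 71 reads in Duroc and 9 in Luchuan, a ratio of -2.33 (-3.60 to -1.41). It is the region most in favor of Duroc among the 62. Below the gene, the region from 43074683 to 43074944 had 36 and 23 reads and a ratio of -0.08 (-0.90 to 0.71). In the 100 kb beyond the window on each side, 14 further regions had a median of 0.02, with 7 of them above 0 and none past 2-fold.

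FABP4, the fatty acid carrier, lies on chromosome 4 from 55096400 to 55101209 and had no region in its window of 24.8 kb, as did 13.1% of all protein-coding genes. The nearest regions were 109.5 kb below and 116.5 kb above the gene, at the borders of a stretch of 231 kb, from 54986878 to 55217743, without any listed peak. This stretch also held PMP2, another gene of the same family of carriers. The median distance between neighbouring regions was 5.66 kb, and 1099 of 140061 such distances were as long as this one. Of the 19550 genes 622, or 3.18%, had no region in the body or within 100 kb. The nearest peaks were weak, with 9 Duroc and 8 Luchuan reads below and 36 Duroc and 37 Luchuan reads above. The table lists only called peaks, so a count for FABP4 itself could not be given, and no ratio between breeds was computed.

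PLIN1, the coat protein of the lipid droplet, lies on chromosome 7 from 55237517 to 55250797 and had 3 regions. Together they held 118 Duroc and 101 Luchuan reads, a log2 ratio of 0.34 (-0.06 to 0.74). The strongest spans the lower end, from 55237436 to 55237781, with 79 Duroc and 66 Luchuan reads and a ratio of 0.30 (-0.19 to 0.80). The region nearest the upper end, from 55253616 to 55253792, also lies within 10 kb of PEX11A, a peroxisome gene, and had 21 and 18 reads. All 3 ratios lay between 0.30 and 0.46 and each interval included 0.

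ADIPOQ, which encodes adiponectin, lies on chromosome 13 from 124633906 to 124646237 and had only 2 regions. The stronger lay 9.56 kb outside the lower end, from 124623783 to 124624350, with 119 Duroc and 87 Luchuan reads and a log2 ratio of 0.11 (-0.30 to 0.53). Inside the gene, the region from 124638524 to 124638732 had 28 and 17 reads, a ratio of -0.15 (-1.11 to 0.77). The sum of both gave 0.07 (-0.31 to 0.44). The breeds did not differ beyond counting error, and the interval leaves room for a ratio as low as -0.31, toward Duroc, or as high as 0.44, toward Luchuan.

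LEP, which encodes the satiety hormone leptin, lies on chromosome 18 from 20106867 to 20124071. Its 3 regions held 306 Duroc and 108 Luchuan reads, a log2 ratio of -0.94 (-1.27 to -0.61), or 1.91-fold higher in Duroc. This value rested on 1 region, 8.79 kb outside the lower end at 20097686 to 20098073, with 198 Duroc and 49 Luchuan reads and a ratio of -1.44 (-1.93 to -0.99). Without it the ratio was -0.31 (-0.79 to 0.17), and LEP was no longer past 1.5-fold. The 2 regions inside the gene differed in direction. The Duroc-specific one, from 20115464 to 20115855, counted 93 in Duroc and 36 in Luchuan, a ratio of -0.79 (-1.40 to -0.23), and the Luchuan-specific one, from 20110161 to 20110310, counted 15 and 23, a ratio of 1.13 (0.18 to 2.23).

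Most regions within 50 kb of LEP, named after their values were seen, were also lower in Luchuan. With the window widened to 50 kb on both sides, LEP had 15 regions, of which 7 were past 2-fold higher in Duroc and 1 past 2-fold higher in Luchuan, and the log2 ratio was -0.83 (-0.96 to -0.70). The 12 regions outside the window of 10 kb gave -0.81 (-0.95 to -0.67). They are part of the -0.83 but not of the -0.94 of the window of 10 kb. Below the gene, 6 of 8 regions were past 2-fold higher in Duroc, with 808 Duroc and 190 Luchuan reads and ratios between -1.66 and -1.40. Over all regions this share was 5.14%, and over common regions 1.4%. Of the 6, only those from 20094935 to 20095440 and from 20097686 to 20098073 are common. The others are Duroc-specific, and peaks called in Duroc alone are weak in Luchuan by the way they were called. The strongest of them, from 20094935 to 20095440, counted 295 reads in Duroc and 65 in Luchuan, a ratio of -1.61 (-2.03 to -1.22). These 6 are consecutive and lie between 8.79 and 26.1 kb from the gene, and no other protein-coding gene lay within 10 kb of the nearest of them. Above the gene, the nearest region, from 20135522 to 20135923, counted 122 in Duroc and 32 in Luchuan, a ratio of -1.35 (-1.97 to -0.79), and the next 3 lay between -0.63 and -0.37. Of the 15, the 3 farthest from the gene, 2 below it at -0.20 and 0.26 and 1 above it at 0.22, had intervals that included 0. In the 100 kb beyond the window of 10 kb on each side, 28 regions had a median of -0.13, with 9 above 0, and their summed reads gave -0.22. The median of all 3654 regions of chromosome 18 was 0.05.

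**Figure D5:**
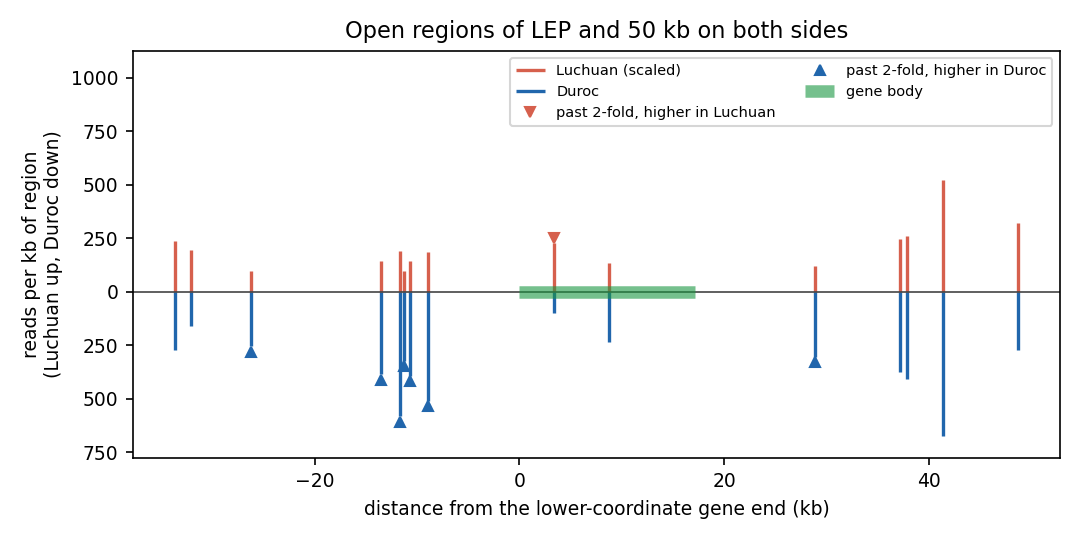
Reads per kb of the 15 regions in LEP or within 50 kb of it against the distance of their midpoints from the gene end with the lower coordinate (kb), with Luchuan (scaled) upwards, Duroc downwards, the gene body in green and triangles at regions past 2-fold. A run of 6 regions below the gene and 1 above it are past 2-fold higher in Duroc, and 1 weak region inside the gene is past 2-fold higher in Luchuan; the window of 50 kb is wider than the 10 kb used for the values per gene. Most regions of the run are peaks called in Duroc alone.

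Of 14 adipogenic transcription factors, CEBPD alone was past 1.5-fold, where 4.43% of all genes were past it higher in Luchuan and 2.72% higher in Duroc. CEBPD acts early in differentiation, and its 6 regions held 1836 Duroc and 1926 Luchuan reads, a log2 ratio of 0.64 (0.54 to 0.73). The median of the list was 0.05. None of 12 inhibitors of adipogenesis was past 1.5-fold, with a median of 0.08, and none of 16 effectors and adipokines of the mature cell with a region, with a median of 0.03. Named after their values were seen were EBF2, a paralog of EBF1 on the list of adipogenic factors, and ZNF521, a paralog of ZNF423 on the list of inhibitors. EBF2 had 590 Duroc and 529 Luchuan reads, a ratio of 0.41 (0.24 to 0.58), and ZNF521 2680 and 2512 reads, a ratio of 0.47 (0.39 to 0.55).

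Over all 8 fixed lists, 4 of 87 genes were past 1.5-fold higher in Luchuan and 2 higher in Duroc, shares near the 4.43% and 2.72% of all genes. Of 11 genes of fibro-adipogenic progenitors and fibroblasts with a region, 7 were above 0, the median was 0.27 and COL3A1, a fibrillar collagen, was past 1.5-fold at 0.61 (0.41 to 0.81). The median was 0.07 with the library totals of the study and -0.29 without scaling, when the medians of all genes were -0.20 and -0.57. Their regions held 10000 Duroc and 11223 scaled Luchuan reads. LUM and TCF21 had no region. Of 13 muscle fiber genes 12 were below 0 and none was past 1.5-fold. Their median was -0.27, or -0.47 with those library totals and -0.84 without scaling, with 152796 Duroc and 136023 scaled Luchuan reads. Of 8 endothelial genes KDR and TEK were past 1.5-fold higher in Luchuan, at 0.74 and 0.79, and TIE1 higher in Duroc, at -0.71. Of 6 macrophage genes with a region C1QA was past 1.5-fold higher in Duroc, at -0.60, and ADGRE1 and C1QB had no region. None of 7 satellite cell genes was past 1.5-fold, and their median was 0.03. The part of these cell types in the values of ZNF423, EBF1, CEBPA and LEP was not tested.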

How the data were processed

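ATAC-seq libraries from the back muscle of 3 Duroc and 3 Luchuan boars were analysed, and the RNA-seq samples were not used here. Trimmomatic 0.36 was used by the authors to filter reads, Bowtie2 to map them on Sscrofa11.1 and MACS2 to call peaks. Removal of duplicates, the shift of reads for the transposase, the pooling of boars and the tool that compared the breeds are not given in the sources used here. The authors deposited raw read counts per peak, 1 column per breed, read here as pooled. Columns deposited with the authors' own log2 fold changes, mean log2 signals and p-values were not used.

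Overlapping or adjoining common peaks were merged and the longest peak stood for each region. Starts were read as counted from 0, since the shortest peak then spans 150 bases, and are given counted from 1. All regions held 20759894 Duroc and 13746020 Luchuan reads. Gene positions are those of RefSeq protein-coding genes. A gene was past 1.5-fold, and a region past 2-fold, only if its 95% Clopper-Pearson interval left out 0. Pseudocounts of 1 were added for regions and none for sums over a gene. With 1 pooled count per breed, no model with replicates was fitted. The steps were tested on simulated counts. Of the listed genes, AGPAT2 (on no chromosome), GSN (annotated as non-coding) and MB (no such symbol) were left out.

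Members, lists and thresholds were chosen with earlier results of these data known. For every gene, the text names the region with the most reads, those nearest the ends and those past 2-fold (at most the 5 with the most reads), besides regions stated to be named after their values were seen, and of each list the genes past 1.5-fold. For lack of sequences, promoter motifs were not examined. Counts were handled in pandas 2.3.3 and NumPy 2.4.6 under Python 3.11.15, intervals came from SciPy 1.17.1 and plots from Matplotlib 3.10.9. Alternatives covered scaling, merging, windows, filters, pseudocounts and thresholds.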

Additional observations from a re-analysis of the deposited data

How the results depend on the processing

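No paired analysis was possible because the table has 1 count per breed, and for the same reason no boar could be left out. With the library totals of the study, which shift the median of all genes to -0.20, the log2 ratios were -0.66 for CEBPA, 0.28 for ZNF423, 0.19 for EBF1 and -0.30 for PDGFRA, 1 of 62 regions of the 9 genes was past 2-fold higher in Luchuan (3.96% of all regions), the median over regions was 0.10, and of the genes of the other lists 1 was past 1.5-fold higher in Luchuan and 7 higher in Duroc, against 4 and 2. Without scaling, which shifts that median to -0.57, the ratios were -0.38 for PPARG, -1.03 for CEBPA, -0.50 for ADIPOQ, -1.50 for LEP, -0.22 for PLIN1, -0.087 for ZNF423, -0.17 for EBF1 and -0.67 for PDGFRA, 1 region was past 2-fold higher in Luchuan (1.57% of all regions) and 4 higher in Duroc (19.9%), the median was -0.26, and 0 and 40 genes of the lists were past 1.5-fold. With a factor that depends on the signal, 5 of 62 regions were past 2-fold higher in Luchuan (4.46% of all regions) and 1 list gene was higher in Duroc, which was also the count with scaling by total reads. In the gene body alone (49 regions), and with 2 kb on both sides (53 regions), LEP was at -0.31, 0 regions were past 2-fold higher in Duroc and the median was 0.40. With 50 kb, 10 of 96 regions were past 2-fold toward Duroc (5.14% of all regions), 7 of them at LEP, and the median was 0.13. At 1.5-fold 4 of 62 regions were higher in Duroc. Without its strongest region LEP was at -0.31 and ZNF423 at 0.55. Over common regions alone, an alternative chosen after seeing the data like the next, LEP was at -1.45, with 2 of 32 regions past 2-fold higher in Luchuan and 1 in Duroc. Without ZNF423 1 of 35 regions was past 2-fold higher in Luchuan and the median was 0.078. The cause of these shifts was not tested beyond what each alternative leaves out or rescales. The other 129 values stayed within the counting interval of the main value or within 1.5 times its count. For the median over regions, which has no counting interval of its own, the width of the interval of the summed reads was centered on the median. CEBPA and LEP were below 0 in all 14 alternatives for each, while ADIPOQ changed sign in 7 and PPARG in 2.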
